A study of Mus musculus with 12 samples.

Results

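The glucocorticoid receptor gene Nr3c1 and 7 genes of the glucocorticoid response and of cellular energy restriction (Tsc22d3, Fkbp5, Txnip, Cnr2, Stk11, Prkaa1 and Arrdc3) were followed through 12 RNA-seq libraries of sorted mouse cells. These 8 genes were taken by name out of 21885 genes in the table. All 8 passed the filter on low values, set at 10 or more scaled reads in 4 or more of the libraries and passed by 12200 genes. P80R B-ALL libraries came from GFP-positive cells of B-cell acute lymphoblastic leukaemia with the PAX5 P80R mutant, sorted from the primary recipients 1300, 1301, 1302 and 1308, with 1 library per recipient. The Pax5 KO group (n = 4) held CLP/pre-pro-B cells, the stage at which lymphoid progenitors begin to enter the B lineage, from Pax5-/- fetal livers. The Pax5 WT group (n = 4) held pro-B/pre-BI cells, the next stage, from Pax5+/+ fetal livers. Genotype and stage therefore differ together between Pax5 KO and Pax5 WT, and both differ from P80R B-ALL in tissue of origin as well, so that their parts in a difference cannot be told apart. The labels do not say whether the fetal liver libraries came from separate animals, and p-values measure the spread between these libraries.

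PAX5 is the transcription factor that commits lymphoid progenitors to the B lineage, and in human B-ALL it has been described as restricting the energy supply of B-lineage cells. NR3C1, TXNIP and CNR2 were named there as effectors of this restriction, alongside the LKB1 and AMPK kinases that sense low cellular energy. The glucocorticoid receptor is a nuclear receptor that, once bound by hormone, leaves its HSP90 and immunophilin chaperone complex and switches on genes such as Tsc22d3 and Fkbp5. Glucocorticoids kill immature lymphoid cells and are part of the treatment of B-ALL.

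Values are scaled read counts, that is, reads divided by 1 factor per library. Recovered depth was 24914250 to 29386256 reads per library in P80R B-ALL, 36871775 to 43513852 in Pax5 KO and 33191950 to 39465256 in Pax5 WT. Pax5 itself stood at 847, 1146, 1316 and 255 in recipients 1300, 1301, 1302 and 1308, at 229.9 to 267 in Pax5 KO and at 6194 to 7315 in Pax5 WT. The summed level of 10 B-lineage markers was 79147 to 143710 in P80R B-ALL, 40022 to 41078 in Pax5 KO and 251090 to 296942 in Pax5 WT. Recipients 1300 and 1308 stood apart: their 10 erythroid markers summed to 377759 and 928357, against 36174 and 29699 in recipients 1301 and 1302, 175 to 230.1 in Pax5 KO and 112 to 194 in Pax5 WT. Of the erythroid markers 9 averaged at least 10 in P80R B-ALL, with Hbb-bh1 at 0, and 3 did in each fetal liver group, where the markers at 0 included Slc4a1. The 12 granulocyte and monocyte markers likewise summed to 152900 and 259253 in recipients 1300 and 1308, to 13977 and 5631 in 1301 and 1302, to 10538 to 11282 in Pax5 KO and to 575 to 828 in Pax5 WT. Results for the 8 genes are therefore also given without recipients 1300 and 1308. Among the granulocyte and monocyte markers, Mpo, Prtn3 and Csf1r averaged 860, 432 and 619 in P80R B-ALL. These were lower than their means of 4880, 1968 and 1024 in Pax5 KO, while the other markers of that list averaged higher in P80R B-ALL. The sum of the 8 macrophage markers moved with the group difference itself and in all 4 recipients. It was 4877 to 32882 in P80R B-ALL, 1041 to 1234 in Pax5 KO and 32.0 to 65.2 in Pax5 WT. Single markers did not all follow, as Mrc1 averaged 864 in P80R B-ALL and 823 in Pax5 KO. All 8 markers averaged at least 10 in P80R B-ALL, 3 did in Pax5 KO and 2 in Pax5 WT. The complement gene C1qc was at 0 in both fetal liver groups, and Adgre1, C1qa, C1qb and Marco were also at 0 in Pax5 WT. Leaving out recipients 1300 and 1308 does not remove this macrophage marker difference. It does not remove the erythroid difference either, since recipients 1301 and 1302, at 36174 and 29699, stood far above both fetal liver groups. T-lineage markers summed to 8312, 14771, 6755 and 11854 in recipients 1300, 1301, 1302 and 1308. They summed to 2862 to 2903 in Pax5 KO and to 519 to 629 in Pax5 WT. Lck was the largest part of these sums, averaging 8053 in P80R B-ALL, 2374 in Pax5 KO and 434 in Pax5 WT. The part of these differences in the results was not tested. In these bulk samples fewer cells of a type and less RNA per cell cannot be told apart.

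The 8 genes did not move as a block. Against Pax5 WT, P80R B-ALL had higher Nr3c1, Tsc22d3, Txnip and Prkaa1 and lower Fkbp5 and Stk11. Against Pax5 KO it had higher Nr3c1, Tsc22d3 and Txnip and lower Fkbp5 and Cnr2. Thus 6 of the 8 genes passed the test in P80R B-ALL against Pax5 WT (limma fitted to the 8 libraries of the pair, Benjamini-Hochberg adjusted p under 0.05 over all genes tested), where 39.9% of all tested genes did: 4 were higher, as were 21% of all genes, and 2 lower, as were 18.9%. Against Pax5 KO 5 of 8 passed, where 38.4% of all genes did: 3 were higher, against 17.6% of all genes, and 2 lower, against 20.8%. In Pax5 KO against Pax5 WT 6 of 8 passed, where 64.8% of all genes did: 4 were higher, against 35.7%, and 2 lower, against 29.1%. The libraries of P80R B-ALL and Pax5 WT did not overlap for 5 of the 8 genes (4 higher, 1 lower), nor for 40.6% of all genes (21.2% higher, 19.4% lower). Those of P80R B-ALL and Pax5 KO did not overlap for 5 (3 higher, 2 lower), nor for 42.4% of all genes (19.5% higher, 22.9% lower). Those of Pax5 KO and Pax5 WT did not overlap for 6 (4 higher, 2 lower), nor for 59.1% of all genes (32.4% higher, 26.7% lower). The median log2 difference over the 8 genes was 0.65, -0.23 and 0.38, against -0.0036, -0.11 and 0.062 over all tested genes. The comparisons share libraries and are not independent of each other.

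**Figure D1:**
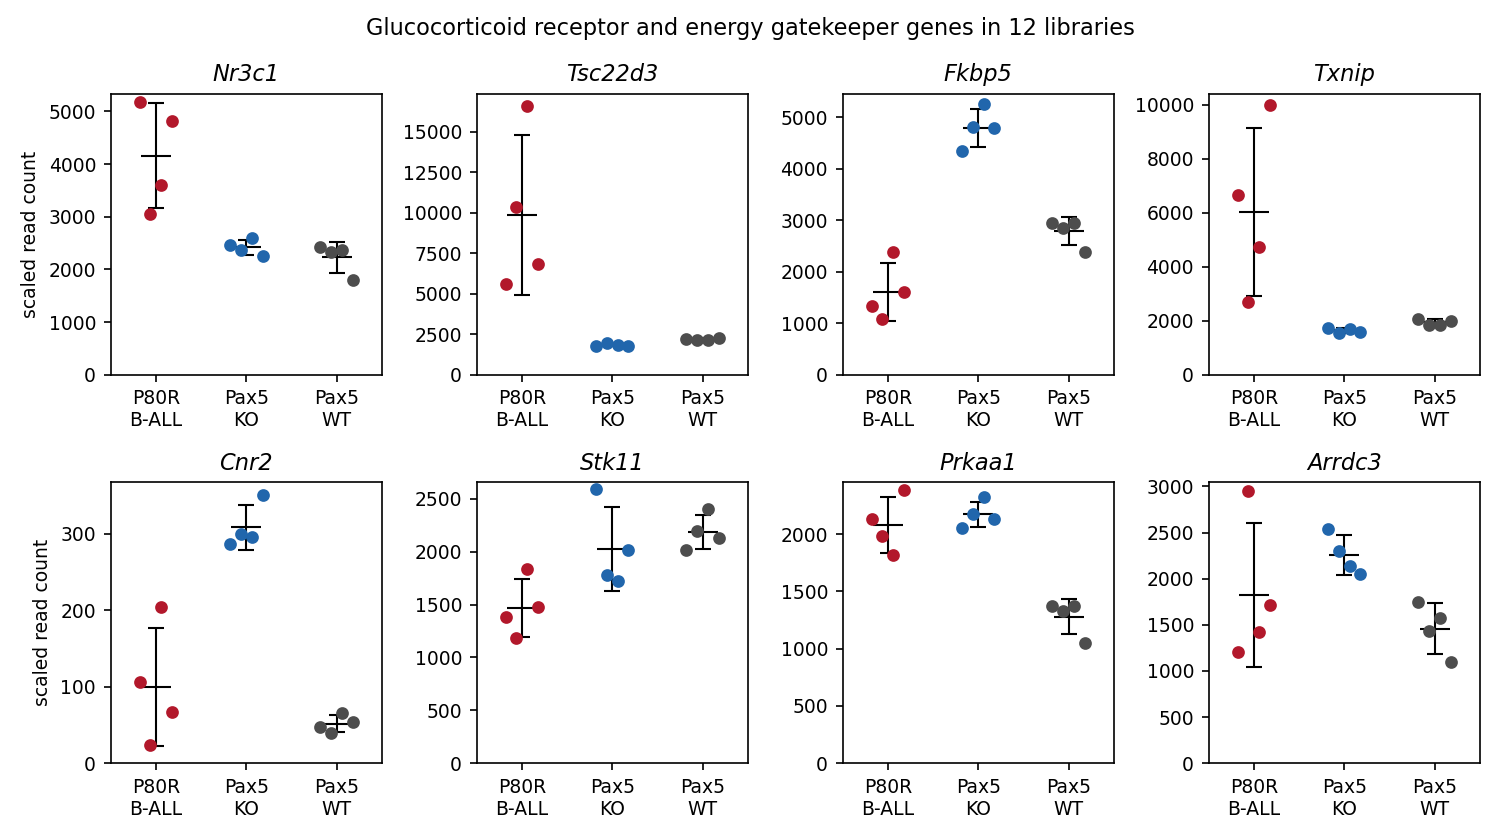
Scaled read count (linear axis from 0) of each gene in the 4 libraries of P80R B-ALL, Pax5 KO and Pax5 WT; points are libraries, the horizontal mark is the mean and the bar 1 SD. Tsc22d3 and Txnip lie above both fetal liver groups in all 4 recipients, Fkbp5 lies below Pax5 KO in all 4, and the leukaemias have a larger SD than either fetal liver group for 7 of the 8 genes, the exception being Stk11, whose SD was largest in Pax5 KO.

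Nr3c1 itself (ENSMUSG00000024431) was 5169.7, 3054, 3603 and 4814 in recipients 1300, 1301, 1302 and 1308, 2456, 2361, 2593 and 2261 in Pax5 KO, and 2433, 2323, 2372 and 1788 in Pax5 WT. Every leukaemia lay above every fetal liver library, while the fetal liver groups overlapped. The log2 difference was 0.88 ± 0.20 (SE) for P80R B-ALL against Pax5 WT (limma adjusted p = 0.00646) and 0.75 ± 0.18 against Pax5 KO (limma adjusted p = 0.0109). Pax5 KO differed from Pax5 WT by 0.13 ± 0.10, which did not pass (limma adjusted p = 0.267). Nr3c1 was highest in the recipients with the high erythroid and myeloid marker sums, 1300 and 1308. Without these recipients the difference was 0.58 against Pax5 WT (limma adjusted p = 0.0255) and 0.46 against Pax5 KO (limma adjusted p = 0.016), and both calls held.

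Tsc22d3 (ENSMUSG00000031431) encodes GILZ, a leucine zipper protein that carries part of the anti-inflammatory and pro-apoptotic action of glucocorticoids, and is among the most widely used readouts of receptor activity. It was 5605, 10379, 16636 and 6839 in recipients 1300, 1301, 1302 and 1308, 1787, 1934, 1817 and 1795 in Pax5 KO, and 2194, 2158, 2138 and 2271 in Pax5 WT. All leukaemias lay above all fetal liver libraries, and the recipients that were lowest in erythroid markers, 1301 and 1302, were highest. The mean was 4.50-fold that of Pax5 WT (log2 difference 2.04 ± 0.29, limma adjusted p = 0.000689) and 5.38-fold that of Pax5 KO (log2 difference 2.30 ± 0.30, limma adjusted p = 0.000864). Without recipients 1300 and 1308 the log2 differences were 2.58 and 2.84. Pax5 KO was below Pax5 WT by a small step that the narrow spread of both groups resolved, at a log2 difference of -0.26 ± 0.06 (limma adjusted p = 0.0023). With 1 spread shared by all 12 libraries this step was not called (limma adjusted p = 0.466).

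Fkbp5 (ENSMUSG00000024222) encodes the immunophilin FKBP51, which binds HSP90 and lowers the affinity of the receptor for hormone, and is itself induced by the receptor as a feedback. It was 1337, 1083, 2384 and 1598 in recipients 1300, 1301, 1302 and 1308, 4339, 4801, 5246 and 4780.5 in Pax5 KO, and 2948, 2842, 2949 and 2384 in Pax5 WT. All leukaemias lay below all Pax5 KO libraries, and 3 of 4 lay below all Pax5 WT libraries, with recipient 1302 level with the lowest of them. The log2 difference was -1.64 ± 0.22 for P80R B-ALL against Pax5 KO (limma adjusted p = 0.00107) and -0.85 ± 0.23 against Pax5 WT (limma adjusted p = 0.0155). The second call was lost without recipients 1300 and 1308 (-0.79, limma adjusted p = 0.0674), and the exact two-sided permutation p over the 8 libraries was 0.0571, where 0.0286 is the smallest that 4 against 4 allows. Pax5 KO was above Pax5 WT by 0.79 ± 0.08 (limma adjusted p = 4.41e-06), with no overlap.

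The 2 receptor-induced genes thus ran in opposite directions in the leukaemias. Per kilobase of exon, Tsc22d3 was 9.14, 20.9, 15.2 and 9.33 times Fkbp5 in recipients 1300, 1301, 1302 and 1308, 0.756 to 0.898 times in Pax5 KO and 1.58 to 2.08 times in Pax5 WT. The ratio did not overlap between any of the groups. Recipients 1301 and 1302, with the lower erythroid marker sums, had the higher ratios. The highest was in recipient 1301, while Tsc22d3 and Fkbp5 were both highest in recipient 1302. The start-site regions of both genes are shown because one rose and the other fell although both are taken as receptor targets. They are the 250 bases before a RefSeq start (build GRCm38.p6, minus strand), with the core AGAACA of a receptor site, read on either strand, in capitals for Tsc22d3 and an E-box CACGTG in capitals for Fkbp5.
Tsc22d3, chrX:140600523-140600772: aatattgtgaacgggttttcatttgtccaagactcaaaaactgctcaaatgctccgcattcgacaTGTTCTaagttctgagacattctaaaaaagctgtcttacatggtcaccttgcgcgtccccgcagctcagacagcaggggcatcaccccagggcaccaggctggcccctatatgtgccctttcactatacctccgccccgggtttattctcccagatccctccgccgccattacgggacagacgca
Fkbp5, chr17:28486150-28486399: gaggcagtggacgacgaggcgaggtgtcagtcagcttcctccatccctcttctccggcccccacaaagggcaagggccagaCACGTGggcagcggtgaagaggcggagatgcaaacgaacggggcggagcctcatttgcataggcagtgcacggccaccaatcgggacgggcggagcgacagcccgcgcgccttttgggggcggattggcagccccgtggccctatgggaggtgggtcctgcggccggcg
The search covered windows of 300 bases, 250 before to 50 after each RefSeq start, on both strands, for 7 of the 8 genes; Nr3c1 had none here. The core AGAACA was in 1 of 3 Tsc22d3 windows, and 18.974% of all 32851 windows hold it. The full palindrome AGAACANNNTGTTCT was in none of the windows of these genes and in 3 windows in all, and no match says only that these letters are not in this window. The E-box was in the Fkbp5 window and in 7.15% of all windows. Which start the cells used is not given by values per gene.

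Glucocorticoid-induced genes moved in both directions. Of 16 listed genes, Tsc22d3 and Fkbp5 among them, 15 were tested, and Zbtb16, at most 5.78 in any library, was not. In P80R B-ALL against Pax5 WT 4 rose and 4 fell, with a median log2 difference of -0.30, against -0.0036 over all genes. Against Pax5 KO 4 rose and 5 fell, with a median of -0.19, against -0.11 over all genes. The shares called were 53.3% and 60%, where 39.9% and 38.4% of all tested genes were called. Of the 13 tested besides Tsc22d3 and Fkbp5, 3 rose and 3 fell against Pax5 WT, and 3 rose and 4 fell against Pax5 KO. The count of 4 that rose against Pax5 WT fell to 1 when any one Pax5 WT library was left out, since Cxcr4, Sgk1 and Errfi1 then missed the threshold. Fewer of all tested genes were called in those fits too, at 3477 to 4109 against 4873 with all libraries. Dusp1, a phosphatase that switches off MAP kinases, fell in both comparisons: it averaged 387 ± 173 in P80R B-ALL, 1658 ± 106 in Pax5 KO and 962 ± 23.6 in Pax5 WT (SD, n = 4 each), with log2 differences of -1.41 ± 0.28 against Pax5 WT (limma adjusted p = 0.00359) and -2.19 ± 0.27 against Pax5 KO (limma adjusted p = 0.000737). Mt1, a metal-binding metallothionein, was lower than in Pax5 WT by a log2 difference of -2.14 ± 0.41 (limma adjusted p = 0.00306). Cxcr4, the receptor that holds B-cell precursors in the marrow, was higher than in Pax5 KO by 2.12 ± 0.17 (limma adjusted p = 0.000113), and Zfp36, which degrades cytokine mRNAs, was lower by -1.76 ± 0.30 (limma adjusted p = 0.00286).

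**Figure D2:**
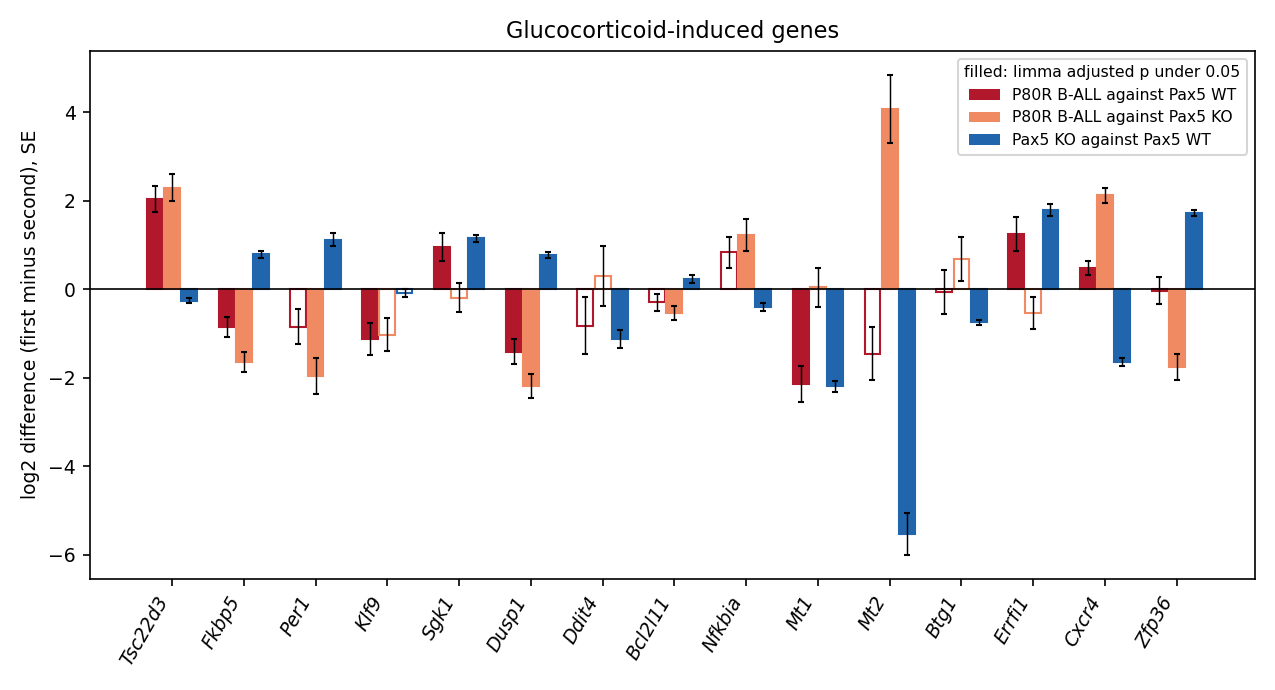
Log2 difference (bar, with its SE) of the 15 tested glucocorticoid-induced genes in 3 comparisons, with P80R B-ALL set against Pax5 WT (dark red), then against Pax5 KO (orange), and Pax5 KO set against Pax5 WT (blue); filled bars passed limma at an adjusted p under 0.05. The genes point both ways in each comparison, and the Mt2 bars that involve Pax5 KO depend on the pseudocount, since Mt2 had 3, 0, 1 and 0 reads in the Pax5 KO libraries.

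Between the fetal liver groups, 7 of the 15 rose and 7 fell in Pax5 KO (median -0.086, against 0.062 over all genes). Thus 93.3% of the 15 were called, where 64.8% of all tested genes were. Zfp36 was higher by 1.73 ± 0.06 (limma adjusted p = 4.36e-10), and Sgk1, a kinase that regulates ion transport, by 1.15 ± 0.07 (limma adjusted p = 3.09e-08). Cxcr4 fell by 1.65 on the log2 scale (limma adjusted p = 1.29e-08) and Mt1 by 2.19 (limma adjusted p = 1.51e-08). With 1 spread shared by all 12 libraries, 3 of the 15 were lower instead of 7. Genes such as Dusp1 and Zfp36 also respond to cell stress, and the 11 dissociation and stress genes (Fos, Egr1 and others) had sums of 14504 to 21687 in P80R B-ALL, 73178 to 74991 in Pax5 KO and 17058 to 17348 in Pax5 WT. Of these 11, 9 rose in Pax5 KO against Pax5 WT and none fell. In P80R B-ALL 8 fell against Pax5 KO, and 4 fell against Pax5 WT, or 2 without any one Pax5 WT library. In this order of comparisons 81.8%, 72.7% and 36.4% were called, against 64.8%, 38.4% and 39.9% of all tested genes. Over all tested genes 2307 fell in P80R B-ALL against Pax5 WT, and 1540 did without Pax5 WT library 3. The part of the stress genes in the results for Fkbp5 and the other induced genes was not tested.

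Of 18 tested chaperones and cofactors (Nr3c2, the mineralocorticoid receptor, reached at most 6.85 and was not tested), 2 rose and 4 fell in P80R B-ALL against Pax5 WT, 2 rose and 4 fell against Pax5 KO, and 5 rose and 5 fell in Pax5 KO against Pax5 WT, or 2 and 2 with 1 spread shared by all 12 libraries; Nr3c1 and Fkbp5 are counted among them. These counts come to 33.3%, 33.3% and 55.6% of the list, against 39.9%, 38.4% and 64.8% of all tested genes. The 4 that fell against Pax5 WT were 2 when Pax5 WT library 1 or 3 was left out. Over all tested genes those fits called 3529 and 3477, against 4873 with all libraries. Hsd11b1, the enzyme that regenerates active glucocorticoid inside the cell, averaged 1055 ± 552 in P80R B-ALL, 761 ± 63.2 in Pax5 KO and 179 ± 28.5 in Pax5 WT (SD, n = 4 each). It was higher than in Pax5 WT by 2.42 ± 0.35 in P80R B-ALL (limma adjusted p = 0.000719) and by 2.09 ± 0.13 in Pax5 KO (limma adjusted p = 3.17e-08). Smarca4, the BRG1 remodelling ATPase used by the receptor to open chromatin, averaged 4649 ± 2078, 10078 ± 154 and 26068 ± 3602 in P80R B-ALL, Pax5 KO and Pax5 WT, and fell by 2.58 on the log2 scale in P80R B-ALL against Pax5 WT (limma adjusted p = 0.000145). Fkbp4, which opposes Fkbp5 on the receptor, did not pass in either comparison of P80R B-ALL, at -0.31 ± 0.17 against Pax5 WT (limma adjusted p = 0.164) and -0.17 ± 0.16 against Pax5 KO (limma adjusted p = 0.442).

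Txnip (ENSMUSG00000038393) encodes an alpha-arrestin that withdraws glucose transporters from the cell surface and binds thioredoxin, and its gene is switched on by the glucose-sensing factors MondoA and Mlx. It was 6657, 2705, 4714 and 9989 in recipients 1300, 1301, 1302 and 1308, 1729, 1547, 1692 and 1587 in Pax5 KO, and 2067, 1856, 1834 and 2002 in Pax5 WT. The leukaemias lay above all fetal liver libraries but spread 3.69-fold among themselves, and recipients 1308 and 1300, those with high erythroid and myeloid markers, were highest. The log2 difference was 1.48 ± 0.33 for P80R B-ALL against Pax5 WT (limma adjusted p = 0.00709) and 1.72 ± 0.34 against Pax5 KO (limma adjusted p = 0.0052). Without recipients 1300 and 1308 it was 0.88 (limma adjusted p = 0.0161) and 1.12 (limma adjusted p = 0.00566), so the calls held at a smaller size. Pax5 KO fell by 0.24 on the log2 scale against Pax5 WT (limma adjusted p = 0.0083), which was lost when libraries were scaled by their totals (limma adjusted p = 0.0771) and with 1 spread shared by all 12 libraries (limma adjusted p = 0.554). Over 606 bases Txnip overlaps the opposite-strand gene Gm15441 in GENCODE M21, and libraries that do not mark strand cannot tell their reads apart there.

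The Txnip start-site region is shown because it holds the element through which glucose-sensing factors act on this gene. These are the 250 bases before the RefSeq start (build GRCm38.p6, plus strand). Capitals mark a forkhead core GTAAACA and the paired CACGAG repeats of the carbohydrate response element.
Txnip, chr3:96557707-96557956: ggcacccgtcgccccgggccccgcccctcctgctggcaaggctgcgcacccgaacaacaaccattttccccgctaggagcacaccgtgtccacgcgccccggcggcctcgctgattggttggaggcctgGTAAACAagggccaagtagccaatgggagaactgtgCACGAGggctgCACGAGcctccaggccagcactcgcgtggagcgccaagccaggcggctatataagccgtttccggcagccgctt
The paired form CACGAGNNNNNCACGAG was written down after the window had been read, and among 32851 windows it was in 1, that of Txnip (0.003%). The forkhead core was also in the Stk11 window, and 3.65% of all windows hold it. Neither match shows binding in these cells.

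Arrdc3 (ENSMUSG00000074794), an alpha-arrestin of the same family that directs the sorting of membrane receptors, did not follow Txnip. It was 1206, 2952, 1418 and 1713 in recipients 1300, 1301, 1302 and 1308, 2543, 2298, 2134 and 2047 in Pax5 KO, and 1742, 1435, 1569 and 1093 in Pax5 WT. Recipient 1301, the lowest in Txnip, was the highest in Arrdc3, and the leukaemias overlapped both fetal liver groups. P80R B-ALL did not pass against Pax5 WT (0.25 ± 0.28, limma adjusted p = 0.491) or Pax5 KO (-0.39 ± 0.26, limma adjusted p = 0.254); without recipient 1301 the second was called (-0.65, limma adjusted p = 0.0153). Pax5 KO was above Pax5 WT without overlap, by 0.64 ± 0.13 (limma adjusted p = 0.000803), a call that was lost with 1 spread shared by all 12 libraries (limma adjusted p = 0.0532). Per kilobase, Txnip was 11.1, 1.84, 6.67 and 11.7 times Arrdc3 in recipients 1300, 1301, 1302 and 1308, 1.35 to 1.59 times in Pax5 KO and 2.35 to 3.67 times in Pax5 WT. Recipient 1301 fell between the fetal liver groups in this ratio, and the other 3 leukaemias lay above both.

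Among 12 tested alpha-arrestins, thioredoxin genes and MondoA partners (Arrdc5 and Mlxipl were not tested, at 9.84 and 8.00 or less), 4 rose and 1 fell in P80R B-ALL against Pax5 WT, 3 rose and 1 fell against Pax5 KO, and 3 rose and 5 fell in Pax5 KO against Pax5 WT; Txnip and Arrdc3 are counted among them. In this order of comparisons 41.7%, 33.3% and 66.7% were called, near the 39.9%, 38.4% and 64.8% of all tested genes. The 5 that fell in Pax5 KO were 3 without Pax5 KO library 2 or 4 or Pax5 WT library 2. When libraries were scaled by their totals they were 2. With 1 spread shared by all 12 libraries 1 rose and 2 fell there, and the 1 that fell against Pax5 KO was none without recipient 1300 or any one Pax5 KO library. Mlx, the DNA-binding partner of MondoA, was 2398, 2459.98, 1563 and 2537 in recipients 1300, 1301, 1302 and 1308, 1154 to 1206 in Pax5 KO and 1174 to 1344 in Pax5 WT. All leukaemias were higher, by a log2 difference of 0.80 ± 0.18 against Pax5 WT (limma adjusted p = 0.00628) and 0.91 ± 0.17 against Pax5 KO (limma adjusted p = 0.00417). MondoA itself, Mlxip, differed by -0.28 ± 0.35 (limma adjusted p = 0.562) and -0.05 ± 0.35 (limma adjusted p = 0.928). Arrdc4, the arrestin closest to Txnip in its glucose response, was 133, 133, 40.9 and 1129 in recipients 1300, 1301, 1302 and 1308, 38.6 to 64.0 in Pax5 KO, and had no read in any Pax5 WT library. Its mean was at least 126-fold higher in P80R B-ALL than a floor of 3 reads per Pax5 WT library, or at least 35.9-fold without recipient 1308, and at least 17.7-fold higher in Pax5 KO; floors cover counting error only. Txnrd3, a thioredoxin reductase, averaged 511 ± 295 in P80R B-ALL, 795 ± 64.9 in Pax5 KO and 6756 ± 299.6 in Pax5 WT (SD, n = 4 each), a log2 difference of -3.93 ± 0.38 in P80R B-ALL against Pax5 WT (limma adjusted p = 0.000109).

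Cnr2 (ENSMUSG00000062585) encodes cannabinoid receptor 2, the G protein-coupled receptor through which endocannabinoids act on B cells. It was 106, 23.4, 203 and 66.4 in recipients 1300, 1301, 1302 and 1308, 287, 299, 296 and 351 in Pax5 KO, and 47.3, 39.0, 65.3 and 54.2 in Pax5 WT. The leukaemias straddled the Pax5 WT range and lay below all Pax5 KO libraries, with recipients 1302 and 1301 at the ends. Pax5 KO averaged 5.99-fold Pax5 WT, a log2 difference of 2.58 ± 0.18 (limma adjusted p = 1.31e-07), larger than that of any other of the 8 genes between the fetal liver groups. P80R B-ALL was lower than Pax5 KO by -1.99 ± 0.58 (limma adjusted p = 0.0242) and did not pass against Pax5 WT (0.59 ± 0.62, limma adjusted p = 0.478). The call against Pax5 KO was lost in edgeR (log2 difference -1.56, adjusted p = 0.0572). It was also lost without any 1 of the Pax5 KO libraries (limma adjusted p = 0.0575 to 0.0659), at log2 differences of -1.93 to -2.02. Those fits called 3118 to 3284 of all tested genes, against 4683 with all libraries. The Cnr2 values rest on few reads in the leukaemias, 81, 19, 164 and 48.

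Of the endocannabinoid genes 8 of 10 were tested. Cnr1, the other cannabinoid receptor, was at 0 in all libraries, and Dagla reached 7.91. Of the 8, 12.5% were called in P80R B-ALL against Pax5 WT, 50% against Pax5 KO and 87.5% in Pax5 KO against Pax5 WT. Over all tested genes the shares were 39.9%, 38.4% and 64.8%. In P80R B-ALL 1 rose and none fell against Pax5 WT, 3 rose and 1 fell against Pax5 KO, and in Pax5 KO 5 rose and 2 fell against Pax5 WT; the 1 that fell against Pax5 KO is Cnr2 itself. Of those against Pax5 KO, none fell without any one Pax5 KO library, 3 fell without recipient 1308 and 4 without recipients 1300 and 1308, and 2 rose without recipient 1301 or any one Pax5 KO library; with 1 spread shared by all 12 libraries 3 rose in Pax5 KO. Gpr18, an orphan lipid receptor proposed to bind a cannabinoid-like ligand, was 4819, 2102, 3178 and 5646 in recipients 1300, 1301, 1302 and 1308, 282 to 327 in Pax5 KO and 144 to 187 in Pax5 WT. It was higher in all leukaemias, by 4.48 ± 0.30 against Pax5 WT (limma adjusted p = 1.48e-05) and 3.55 ± 0.29 against Pax5 KO (limma adjusted p = 0.000116). Mgll, which breaks down the endocannabinoid 2-arachidonoylglycerol, was lower in Pax5 KO than in Pax5 WT by -3.67 ± 0.24 (limma adjusted p = 7.14e-08) and higher in P80R B-ALL than in Pax5 KO by 4.21 ± 0.69 (limma adjusted p = 0.00226).

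Stk11 (ENSMUSG00000003068) encodes LKB1, the kinase that activates AMPK and its relatives. It was 1379, 1183, 1837 and 1477 in recipients 1300, 1301, 1302 and 1308, 2590.1, 1779, 1720.4 and 2016 in Pax5 KO, and 2018, 2199, 2400.4 and 2134 in Pax5 WT. All leukaemias lay below all Pax5 WT libraries, and they overlapped Pax5 KO, in which library 1 was high. The log2 difference was -0.59 ± 0.16 for P80R B-ALL against Pax5 WT (limma adjusted p = 0.0164) and -0.46 ± 0.18 against Pax5 KO (limma adjusted p = 0.075). The call was lost without Pax5 WT library 2 (limma adjusted p = 0.0509) or 3 (limma adjusted p = 0.0601), and against Pax5 KO a call was gained without recipient 1302 (-0.58, limma adjusted p = 0.0301), with scaling by library totals (-0.61, limma adjusted p = 0.0455) and with 1 spread shared by all 12 libraries (limma adjusted p = 0.0285). Pax5 KO differed from Pax5 WT by -0.13 ± 0.12 (limma adjusted p = 0.357), or by -0.25 without Pax5 KO library 1 (limma adjusted p = 0.0241). Stk11 overlaps Cbarp on the opposite strand by 232 bases, and Cbarp reached at most 19.0 in any library.

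Prkaa1 (ENSMUSG00000050697) encodes the catalytic subunit AMPKα1, which shuts down biosynthesis and raises energy supply when AMP accumulates. It was 2131, 1984, 1816 and 2387 in recipients 1300, 1301, 1302 and 1308, 2056, 2175, 2319 and 2132 in Pax5 KO, and 1367, 1329, 1370.3 and 1051 in Pax5 WT. Leukaemias and Pax5 KO overlapped, and both lay above all Pax5 WT libraries. P80R B-ALL was higher than Pax5 WT by 0.70 ± 0.15 (limma adjusted p = 0.00563) and Pax5 KO by 0.77 ± 0.09 (limma adjusted p = 1.28e-05), while P80R B-ALL and Pax5 KO differed by -0.07 ± 0.13 (limma adjusted p = 0.695). Prkaa1 was also the steadiest of the 8 genes across the leukaemias, with a coefficient of variation of 11.6%. At the mRNA level Stk11 was thus lower and Prkaa1 higher in the leukaemias against Pax5 WT. The Stk11 call was lost without Pax5 WT library 2 or 3, and Prkaa1 was higher in Pax5 KO as well. Neither gene was called between P80R B-ALL and Pax5 KO in the fit of that pair with all its libraries and the authors' scaling. Stk11 was called there with scaling by library totals and with 1 spread shared by all 12 libraries.

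**Figure D3:**
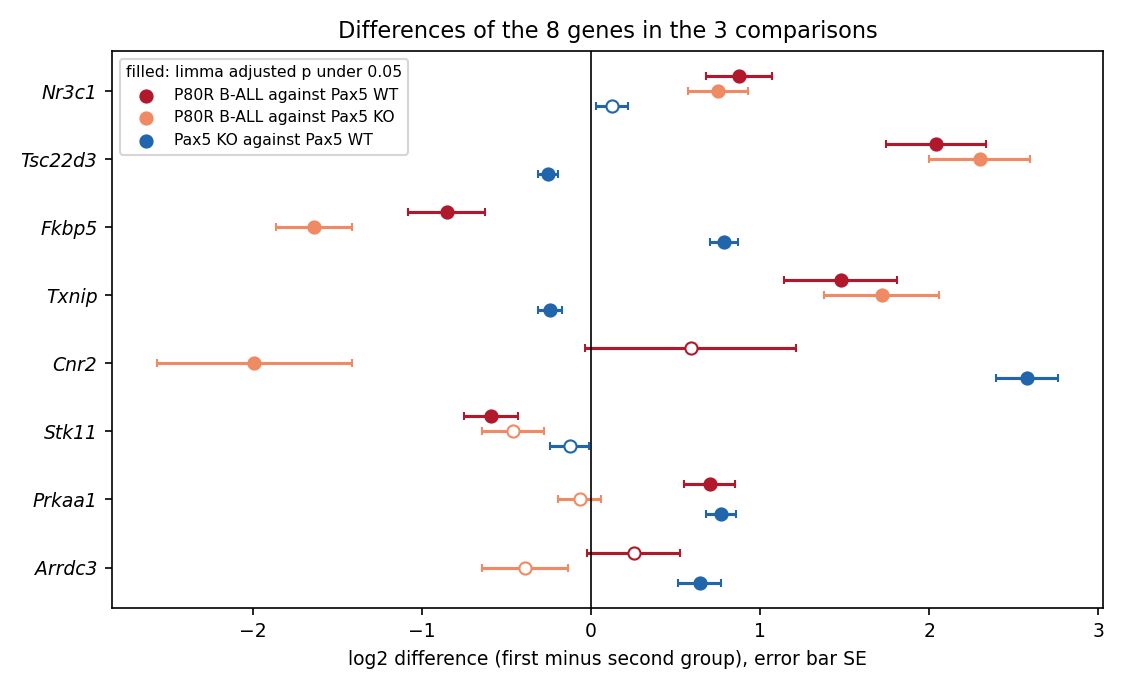
Log2 difference (point, first group minus second, bar 1 SE) of each of the 8 genes in the 3 comparisons; filled points passed limma at an adjusted p under 0.05. Tsc22d3 and Txnip lie far to the right in both comparisons of P80R B-ALL and just left of 0 in Pax5 KO against Pax5 WT, Fkbp5 and Cnr2 show their lowest values in P80R B-ALL against Pax5 KO, and Prkaa1 lies at 0.70 and 0.77 in the comparisons with Pax5 WT.

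The other subunits did not all go with Prkaa1. Among LKB1 and AMPK complex genes 58.3% were called in P80R B-ALL against Pax5 WT, 16.7% against Pax5 KO and 83.3% in Pax5 KO against Pax5 WT. Over all tested genes the shares were 39.9%, 38.4% and 64.8%. Of 12 tested LKB1 and AMPK complex genes (Prkag3 was at 0), 2 rose and 5 fell in P80R B-ALL against Pax5 WT, 1 rose and 1 fell against Pax5 KO, and 5 rose and 5 fell in Pax5 KO against Pax5 WT, counts that include Stk11 and Prkaa1. The 5 that fell against Pax5 WT were 1 without Pax5 WT library 2 or 3. Over all tested genes those fits called 3503 and 3477, against 4873 with all libraries. The 2 that rose against Pax5 WT were 1 without recipient 1300 or 1301 or any one Pax5 WT library. The 1 that fell against Pax5 KO was none without Pax5 KO library 2, 3 or 4. With 1 spread shared by all 12 libraries Pax5 KO had 2 higher and 3 lower. Prkaa2, the alternative catalytic subunit, averaged 8.02 ± 10.5 in P80R B-ALL, 3.46 ± 2.32 in Pax5 KO and 70.6 ± 27.2 in Pax5 WT (SD, n = 4 each), a log2 difference of -4.06 ± 1.08 in P80R B-ALL (limma adjusted p = 0.0147; edgeR adjusted p = 0.0615) and -4.19 ± 0.59 in Pax5 KO (limma adjusted p = 6.24e-05). Prkag1, a regulatory subunit that binds AMP, was higher in P80R B-ALL than in Pax5 KO by 0.92 ± 0.16 (limma adjusted p = 0.00265) and lower in Pax5 KO than in Pax5 WT by -0.73 ± 0.09 (limma adjusted p = 1.38e-05). Prkag2, another such subunit, had more reads in Pax5 KO, by 1.11 ± 0.08 on the log2 scale against Pax5 WT (limma adjusted p = 1.56e-07).

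Downstream of LKB1 and AMPK, 23 of 24 listed kinases and substrates were tested, Mark1 being left out. Of the 23, 30.4% were called in P80R B-ALL against Pax5 WT, 39.1% against Pax5 KO and 69.6% in Pax5 KO against Pax5 WT. Over all tested genes the shares were 39.9%, 38.4% and 64.8%. In P80R B-ALL 2 rose and 5 fell against Pax5 WT, with a median log2 difference of -0.28, against -0.0036 over all genes. None rose and 9 fell against Pax5 KO, with a median of -0.50, against -0.11 over all genes. These 9 were 5 without Pax5 KO library 1 or 4 and 14 without recipients 1300 and 1308. Acaca, the acetyl-CoA carboxylase that AMPK inhibits, averaged 434 ± 238 in P80R B-ALL, 1504 ± 115 in Pax5 KO and 1323 ± 303 in Pax5 WT (SD, n = 4 each), a log2 difference of -1.98 ± 0.38 against Pax5 KO (limma adjusted p = 0.00472). Tsc2, the brake on mTORC1 that AMPK engages, averaged 902 ± 387, 2707 ± 190.1 and 2190.5 ± 361 in P80R B-ALL, Pax5 KO and Pax5 WT, and fell by 1.68 on the log2 scale in P80R B-ALL against Pax5 KO (limma adjusted p = 0.00208). Fnip2, a partner of folliculin and AMPK, averaged 375 ± 172 in P80R B-ALL, 335 ± 60.4 in Pax5 KO and 16.1 ± 14.3 in Pax5 WT, a log2 difference of 4.81 ± 0.69 in P80R B-ALL against Pax5 WT (limma adjusted p = 0.000678). In Pax5 KO against Pax5 WT 13 of the 23 rose and 3 fell, or 6 rose with 1 spread shared by all 12 libraries. The median in this comparison was 0.43, against 0.062 over all genes. Sesn1, a stress-induced activator of AMPK, was higher by 1.12 ± 0.06 there (limma adjusted p = 1.43e-08), and Foxo1, a factor restrained by AKT, lower by -0.99 ± 0.05 (limma adjusted p = 7.62e-09).

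Among the genes of glucose uptake, the transporter genes Slc2a1 and Slc2a3 went in opposite directions in P80R B-ALL. Slc2a1, the gene of GLUT1, averaged 659 ± 175 in P80R B-ALL, 1439.6 ± 78.4 in Pax5 KO and 1222 ± 84.6 in Pax5 WT (SD, n = 4 each), and fell in P80R B-ALL by 0.93 on the log2 scale against Pax5 WT (limma adjusted p = 0.00809) and by 1.17 against Pax5 KO (limma adjusted p = 0.00356). Slc2a3, the gene of the high-affinity transporter GLUT3, was higher by 2.08 ± 0.23 in P80R B-ALL against Pax5 WT (limma adjusted p = 0.00016). Igf1r, the receptor of insulin-like growth factors, averaged 39.0 ± 28.6 in P80R B-ALL, 549 ± 86.2 in Pax5 KO and 960.1 ± 174 in Pax5 WT, a log2 difference of -5.06 ± 0.69 in P80R B-ALL against Pax5 WT (limma adjusted p = 0.000501). Of 13 tested genes of insulin signalling and glucose uptake, 2 rose and 5 fell in P80R B-ALL against Pax5 WT, 1 rose and 6 fell against Pax5 KO, and 8 rose and 5 fell in Pax5 KO against Pax5 WT, or 4 and 1 with 1 spread shared by all 12 libraries. The 1 that rose against Pax5 KO, Slc2a3, missed the threshold without recipient 1302 or any one Pax5 KO library. Of the 13, 53.8% were called in P80R B-ALL against Pax5 WT, 53.8% against Pax5 KO and 100% in Pax5 KO against Pax5 WT. Over all tested genes the shares were 39.9%, 38.4% and 64.8%.

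The leukaemias differed in which of the 8 genes they carried high. The coefficient of variation across the recipients was 76.9% for Cnr2, 51.5% for Txnip, 50.1% for Tsc22d3, 42.9% for Arrdc3, 35.2% for Fkbp5, 23.96% for Nr3c1, 18.7% for Stk11 and 11.6% for Prkaa1. Recipient 1302 was highest in Tsc22d3, Fkbp5, Cnr2 and Stk11 and lowest in Prkaa1. Recipient 1301 was lowest in Nr3c1, Fkbp5, Txnip, Cnr2 and Stk11 and highest in Arrdc3. Recipient 1308 led in Txnip and Prkaa1, and recipient 1300 in Nr3c1, with the lowest Tsc22d3 and Arrdc3. Recipients 1300 and 1308, highest in Nr3c1 and Txnip, also carried the highest erythroid and granulocyte and monocyte marker sums, and 1308 alone had high plasmacytoid dendritic cell markers, at 268798 against 16182 to 21053 in the other recipients. The part of these markers in the spread was not tested.

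**Figure D4:**
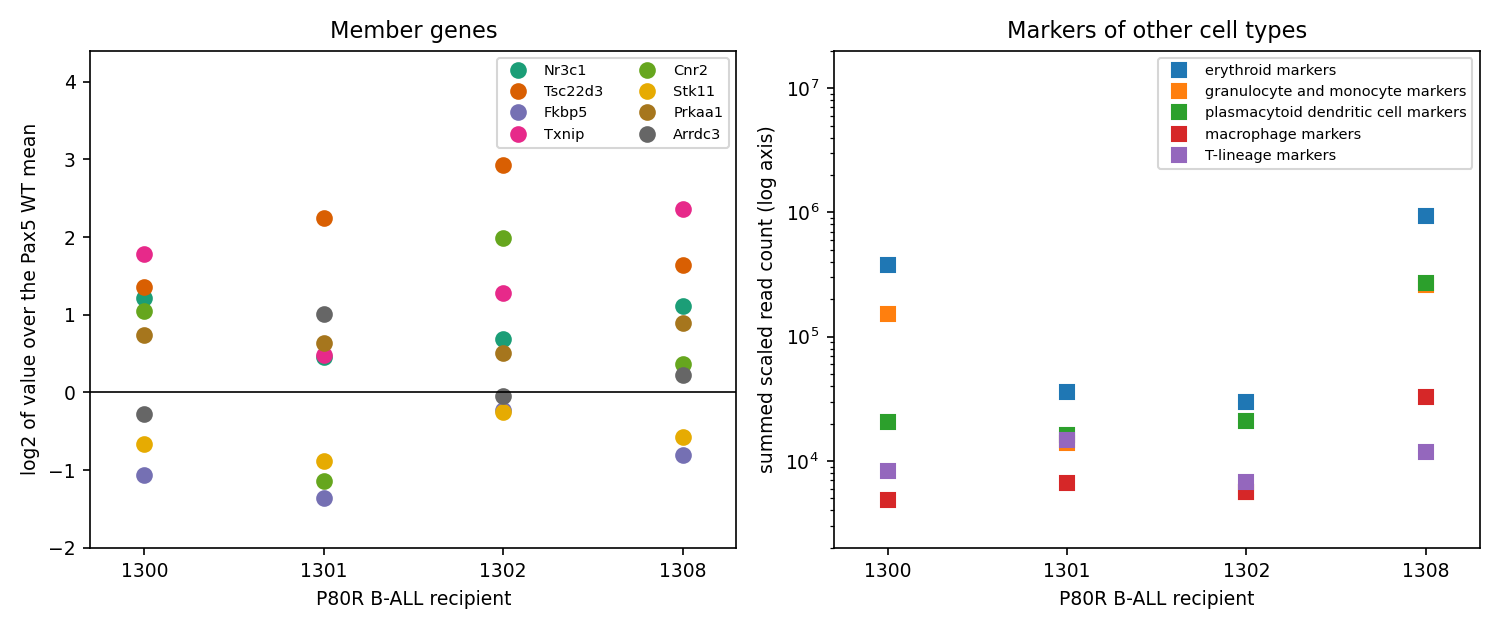
Left, log2 of each gene's value in the P80R B-ALL recipients 1300, 1301, 1302 and 1308 over its Pax5 WT mean (0 is the Pax5 WT mean); right, summed scaled read counts of 5 marker lists in the same libraries on a log axis. Tsc22d3 peaks in 1302, Txnip in 1308 and Arrdc3 in 1301, and the erythroid sums of 1300 and 1308 (377759 and 928357) stand above those of 1301 and 1302 (36174 and 29699).

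Compared per kilobase of exon, the order of the genes changed between groups. In P80R B-ALL the means ran Tsc22d3 2272 ± 1139.5, Txnip 1926 ± 993, Nr3c1 541 ± 129.7, Prkaa1 447 ± 52.0, Stk11 321 ± 59.9, Arrdc3 291 ± 125, Fkbp5 169 ± 59.5 and Cnr2 25.1 ± 19.3 (scaled reads per kilobase, SD, n = 4). Neighbours whose ranges of 1 SD around the mean overlapped there were Tsc22d3 and Txnip, Nr3c1 and Prkaa1, Stk11 and Arrdc3, and Arrdc3 and Fkbp5. In Pax5 KO Txnip (525 ± 27.4), Fkbp5 (506 ± 39.1), Prkaa1 (466 ± 23.7), Stk11 (442 ± 86.7) and Tsc22d3 (422 ± 15.8) formed a run in which these ranges overlapped between neighbours. Arrdc3 (360.0 ± 34.8) and Nr3c1 (315 ± 18.4), whose ranges also overlapped, and Cnr2 (77.4 ± 7.28) followed. In Pax5 WT Txnip led at 621 ± 36.2, then Tsc22d3 at 505 ± 13.4 and Stk11 at 478 ± 35.0, whose ranges overlapped, with Fkbp5 (294 ± 28.4), Nr3c1 (290.1 ± 38.7), Prkaa1 (275 ± 32.9) and Arrdc3 (233 ± 43.8) overlapping their neighbours in the same way and Cnr2 last at 12.9 ± 2.79. Cnr2 was thus the lowest of the 8 in all 3 groups, and Fkbp5 stood second in Pax5 KO but seventh in P80R B-ALL.

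The genes whose log2 values followed each of the 8 most closely over the 12 libraries were taken as a description, in which the group differences are shared by many genes. Nr3c1 went most closely with Dnajb2 (Pearson r = 0.98), Tsc22d3 with Tspan10 (r = 0.98), Gimap6 (r = 0.97) and Gtsf1 (r = 0.97), and Fkbp5 with Csnk1d (r = 0.99). Tspan10 and Gtsf1 were at 0 in all fetal liver libraries and averaged 25.5 and 118 in P80R B-ALL. Txnip went with Faap20 (r = 0.98) and Lamtor4 (r = 0.97), Cnr2 with Sh2d5 (r = 0.98) and Rasal3 (r = 0.97), and Stk11 with Ppp1r12c (r = 0.96). Prkaa1 went with Mrc1 (r = 0.98), a gene of the macrophage marker list, at means of 864 in P80R B-ALL, 823 in Pax5 KO and 11.5 in Pax5 WT, and Arrdc3 with Cxcr5 (r = 0.92), at 237, 252 and 47.2 in the same groups.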

How the data were processed

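The deposited signal values are read counts that the authors had divided by 1 factor per library: 100% of values were whole multiples of a library's smallest value within 0.001, with factors of 0.723 to 1.38. The sources used here do not give the method behind the factors. The authors ran STAR 2.7.8a, fastp and featureCounts on build mm39, per the submitters' processing notes; those notes name no annotation, strand setting or rule for multiply matching reads, so Hspa8, Txn1 and other genes with near-identical copies are uncertain. Per the labels' protocols, libraries were SMART-Seq v4, which does not mark strand. Names and exon lengths came from GENCODE M21 (21780 of 21885 identifiers matched), and start-site windows from RefSeq GRCm38.p6.

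Tests used limma 3.58.1 in R 4.3.3 (trend, robust, two-sided) on log2 after adding a pseudocount of 1, which understates the fold of a low gene. Each pair of groups was fitted alone because the leukaemias varied more. Adjusted p-values are Benjamini-Hochberg over 12200 genes, with a threshold of 0.05. Exact permutation tests used library values. Alternatives were edgeR 4.0.16 and DESeq2 1.42.0 on recovered reads, a weight per group, 1 spread shared by 12 libraries, other pseudocounts (10 and 0.1), filters and scalings, left-out libraries and a replicate block. The fit was tested on simulated data. Named genes were, per list and comparison, up to 4 with the smallest adjusted p, the 8 members, Pax5 and listed partners. Members and lists were chosen with earlier results of these data known. No 2 libraries agreed within sampling noise.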

Additional observations from a re-analysis of the deposited data

Results flagged for a closer look

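In 195 groups of 4 libraries (the 8 genes, Pax5 and the other genes named from the lists), 1 library lay far outside the other 3 in 13 cases by Dixon's test at its 95% critical value; chance alone flags about 1 group in 20. Among the 8 genes this was Prkaa1 alone, at 1051 in Pax5 WT library 4 against 1329 to 1370.3 in the others. Its calls against Pax5 WT held without that library, at log2 differences of 0.61 in P80R B-ALL and 0.68 in Pax5 KO.

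Recipient 1308 stood out with Arrdc4 at 1129 against 40.9 to 133 in the other leukaemias, Hk3 at 713 against 36.9 to 119.6, and Egr1 at 363 against 82.5 to 128. Recipient 1302 had Mlx at 1563 against 2398 to 2537, recipient 1301 had Mt2 at 7.38 against 36.8 to 39.7, and recipient 1300 had Mgll at 1480.5 against 155 to 347. In Pax5 KO, library 1 had Ncor1 at 10364 against 9122 to 9208 and Ulk1 at 1419 against 1236 to 1266, and library 4 had Txn1 at 17422 against 16302 to 16397. In Pax5 WT, library 4 had Hspa8 at 73002 against 67645 to 68167, Acaca at 875 against 1404 to 1507 and Slc2a3 at 386 against 454 to 466.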

How the results depend on the processing

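Over 24 values of the 8 genes and 456 recomputed values, 439 kept their side of the threshold. A call was lost in 12 and gained in 5, and none with a call reversed. Values without a call could change sign. Arrdc3 in P80R B-ALL against Pax5 WT went from 0.25 to -0.0081 without recipient 1301. The calls of Nr3c1, Tsc22d3 and Txnip in both comparisons of P80R B-ALL, and of Prkaa1 against Pax5 WT, held in all alternatives. With 1 spread shared by 12 libraries, Pax5 KO against Pax5 WT had 4193 genes and 3 of the 8 called instead of 7901 and 6, since the spread of the leukaemias enters that fit. Leaving out 1 library gave 3118 to 5315 genes in P80R B-ALL against Pax5 KO, 4683 with all. The lowest was without Pax5 KO library 3. For P80R B-ALL against Pax5 WT the range was 3477 to 5375, and 4873 with all. Rptor in P80R B-ALL against Pax5 WT was -0.55 and not called, and 0.50 without recipients 1300 and 1308 (limma adjusted p = 0.0124); the cause was not tested. The share of called genes that were higher in P80R B-ALL than in Pax5 KO was 45.9%, but 57.9% in edgeR, 57.4% in DESeq2 and 35.5% with library totals, and the median of all genes there was -0.11, 0.062, 0.078 and -0.26. Fetal liver libraries share numbers, but libraries of the same number did not deviate together (r = 0.00493, 0.0216, 0.0318 and 0.0616). A replicate block gave 7987 genes and changed no call among the 8. Counting error weighs most on Cnr2 (19 to 164 reads per library in P80R B-ALL, 39 to 66 in Pax5 WT) and Prkaa2 (0 to 16 in P80R B-ALL, 0 to 6 in Pax5 KO).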
